A study of Mus musculus with 11 samples.

Results

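The 10 genes described here were Rab3a, Rab3b, Rab3c, Rab3d, Rab27a, Rab27b, Sytl4, Rph3al, Rabggta and Rabggtb. They encode the Rab GTPases of secretory granules, a pair of the proteins that bind them, and the enzyme that gives Rab proteins their lipid anchor. They were chosen by gene symbol from a table of 53947 mouse genes, of which 48651 had a symbol, and each symbol matched 1 gene. The choice was made with earlier results of these data known. RNA came from alphaTC1-6 cells, a cloned mouse line that makes glucagon and was derived from a pancreatic alpha cell tumour of a mouse carrying the SV40 large T antigen under the glucagon gene promoter. There were 4 libraries of cells with Mettl3 knocked down (Mettl3 KD), 4 with Mettl14 knocked down (Mettl14 KD) and 3 given a scramble control. All groups were transfected while being plated, at a stated confluency of 70%, and collected 72 h after knockdown. Mettl3 and Mettl14 are the core subunits of the writer of N6-methyladenosine (m6A) in messenger RNA, and the design asks what lowering either one does to the transcripts of an alpha cell line. The sources used here do not name the knockdown reagent.

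Rab proteins are small GTPases that mark a membrane compartment and switch between an active GTP-bound and an inactive GDP-bound form. Rab3 and Rab27 proteins sit on secretory granules, including the insulin and glucagon granules of islet cells, and their active forms recruit effector proteins that help granules dock at the plasma membrane before exocytosis. To hold on to a membrane a new Rab protein must be carried by an escort protein to Rab geranylgeranyl transferase, a dimer of the products of Rabggta and Rabggtb, which attaches geranylgeranyl lipids to cysteines at the end of the Rab protein. Exchange factors load GTP, and GTPase-activating proteins end the active state.

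The shared target of that enzyme can be read in the genes themselves. The last 30 bases of the coding sequence, stop codon included, are shown from GENCODE M21 (GRCm38) with the cysteine codons in capitals, because these cysteines are what the transferase modifies. They lie at chr8:70758059-70758088 on the plus strand for Rab3a, chr4:108940784-108940813 on the plus strand for Rab3b, chr13:110061815-110061844 on the minus strand for Rab3c, chr9:21910484-21910513 on the minus strand for Rab3d and chr9:73095427-73095456 on the plus strand for Rab27a.
Rab3a: gcgccacctcatcaggatTGTgccTGCtga
Rab3b: cctctgctgcagcagaacTGCtctTGTtag
Rab3c: cctccaccacagcccaacTGTggcTGCtaa
Rab3d: cccccacagccgagcagcTGCagcTGTtag
Rab27a: gagaaggagaaggggttgTGTggcTGTtga
In all 5 sequences the cysteine codons are the last codon before the stop and the codon 2 places earlier, so that each of these proteins ends in cysteine, any residue, cysteine. The bases before that end differ from gene to gene.

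The libraries held 19576632 to 22406527 estimated counts, and levels are given as CPM, the counts of a gene relative to its library's total after edgeR's TMM scaling. Mettl3 averaged 5.34 ± 0.449 CPM in Mettl3 KD libraries and 14.9 ± 1.02 CPM in scramble, and Mettl14 averaged 14.7 ± 0.720 CPM in Mettl14 KD and 25.2 ± 1.70 CPM in scramble (SD, n = 4 and n = 3). All 12 alpha cell markers were detected in every library, with Gcg at 28738 to 38728 CPM, while the beta cell regulator Pdx1 was at 0 throughout and Ins1 and Ins2 had 2 and 5 counts over all libraries. The beta cell marker Nkx6-1 was present at 48.9 to 72.0 CPM. Scramble replicate 2 stood apart: it had the smallest total, and 19 lung and blood markers summed to 158 CPM in it, with none at 0, against 3.51 to 8.33 CPM in the other 10 libraries. Its 12 alpha cell markers summed to 38677 CPM, against 42973 to 50292 CPM elsewhere. The calls below that rest on this library are given with and without it, and the part of those transcripts in any result was not tested. Nothing in the labels says whether replicates came from separate cultures, so a p-value here reflects how far these samples spread, and that spread may be technical.

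In scramble cells the 10 genes covered a wide range of levels, compared here as CPM per kilobase of each gene's longest coding transcript. Rab3a was highest at 81.8 ± 9.01 and Rabggtb next at 64.1 ± 5.75 CPM per kb, and the libraries of those genes did not overlap. Rab27a followed at 23.5 ± 3.24 and Rph3al at 18.3 ± 1.08 CPM per kb, again without overlap. Rab3c and Rab3d, at 12.6 ± 0.684 and 12.4 ± 0.785 CPM per kb, could not be ordered, because their ranges overlapped. Rab3b was at 4.65 ± 0.280, Rabggta at 3.01 ± 0.0994 and Rab27b at 0.648 ± 0.179 CPM per kb (SD, n = 3 for each gene), and Sytl4 was near 0. Rab3a thus made up 73.3 ± 2.10% of the Rab3 sum and Rab27a 97.2 ± 1.09% of the Rab27 sum. Without scramble replicate 2 these shares were 72.0% and 97.8%.

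**Figure D1:**
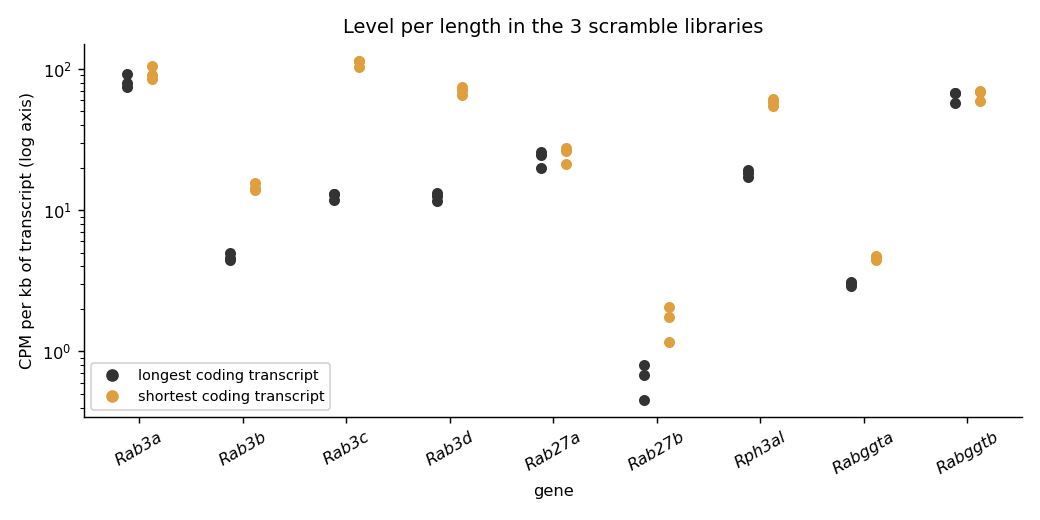
Level of 9 genes in the 3 scramble libraries, as CPM per kilobase on a log axis, by the longest (dark) and the shortest (orange) coding transcript of each gene; each point is 1 library. Rab3c stands at 12.6 by its longest and at 110.0 by its shortest transcript, so its place depends on the length used, while Rab27b is lowest by either.

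The order of the genes, within the Rab3 family and outside it, depended on the transcript length taken, because the table gives a count per gene and not per transcript. Annotated coding transcripts of Rab3c ran from 967 to 8444 bases and those of Rab3a from 1363 to 1556 bases. With the shortest transcript of each gene, Rab3c was at 110.0 ± 5.97 and Rab3a at 93.4 ± 10.3 CPM per kb, with overlap, and the Rab3 shares became 38.3% for Rab3c and 32.4% for Rab3a. By the shortest transcripts Rph3al, at 57.8 ± 3.41 CPM per kb, stood above Rab27a, at 25 ± 3.44, without overlap, the reverse of their order by the longest. Rab3d, at 69.7 ± 4.39, and Rabggtb, at 65.9 ± 5.91 CPM per kb, overlapped by the shortest. Rab27a outweighed Rab27b by either length, with 93.6 ± 2.45% of the Rab27 sum by the shortest. Rabggta was far below its partner Rabggtb by either length: 3.01 against 64.1 CPM per kb by the longest and 4.59 against 65.9 CPM per kb by the shortest transcripts.

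With Mettl3 knocked down, Rabggta fell to 57.7% of the scramble level, Rab3b to 76.7% and the effector Rph3al to 77.1%, while Rabggtb rose to 111% of scramble. The remaining 5 tested genes did not pass the test: Rab3a, Rab3c, Rab3d, Rab27a and Rab27b. Thus 4 of 9 tested genes were called, against 31.3% of all 14133 genes tested. Because the genes and the lists were chosen with earlier results known, such counts, here and below, only describe them. They cannot test whether the set differs from all genes. By direction, 1 of 9 was higher, against 15.5% of all genes, and 3 of 9 were lower, against 15.8%. The median log2 fold change was -0.14 over the 9 genes and 0.00 over all genes tested, with quartiles of -0.15 and 0.12 over all genes. A call here is an adjusted p under 0.05 in the quasi-likelihood F-test of edgeR, adjusted by the Benjamini-Hochberg procedure over all genes tested. The groups did not overlap for 4 of 9, against 35.5% of all genes. Without scramble replicate 2 the count was 5 of 9, all lower: Rab27a and Rab3c gained a call and Rabggtb lost its call. Without scramble replicate 1 the count was 7 of 9. In bulk RNA, fewer cells of a type and less RNA per cell cannot be told apart.

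With Mettl14 knocked down, Rph3al fell to 80.8% of scramble and Rab3d to 89.0%, and Rabggtb rose to 113% of scramble. Rabggta, at 91.2% of scramble, and Rab3b, at 93.5%, did not pass the test. In all, 3 of 9 were called, against 20.9% of all genes tested. Of these, 1 was higher, against 10.1% of all genes, and 2 were lower, against 10.8%. None of the 9 was called lower by more than 1.5-fold, against 1.58% of all genes, and the groups did not overlap for 3 of 9, against 28.9%. The median log2 fold change was -0.12 over the 9 genes and 0.00 over all genes tested. Both knockdowns were set against the same 3 scramble libraries, so the comparisons are not independent of each other. Without scramble replicate 2 the count stayed at 3 of 9, with Rab27a called lower in place of Rab3d. Without scramble replicate 1 the count was 5 of 9. It was 2 of 9 without scramble replicate 3, Mettl14 KD replicate 2 or Mettl14 KD replicate 4.

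**Figure D2:**
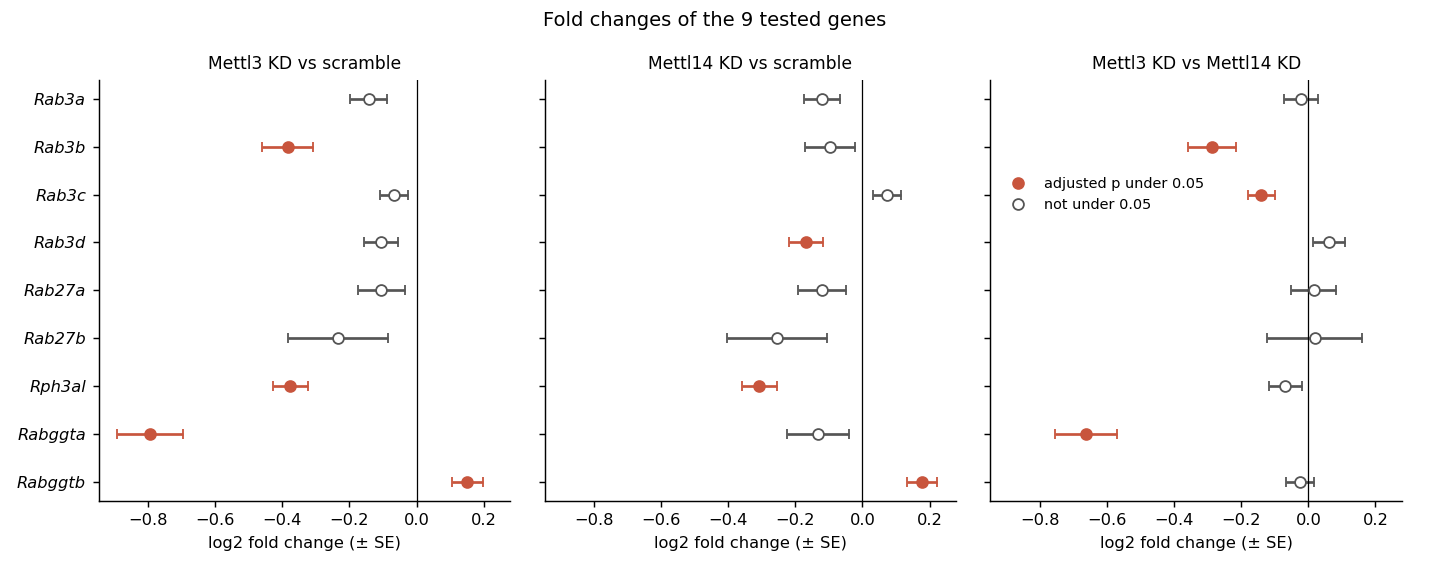
Log2 fold change with its standard error for the 9 tested genes, in Mettl3 KD against scramble, Mettl14 KD against scramble and Mettl3 KD against Mettl14 KD; filled points have an adjusted p under 0.05 in edgeR's quasi-likelihood test. Rabggta stands at -0.79, -0.13 and -0.66 in the 3 panels, and Rph3al at -0.38, -0.31 and -0.07.

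Rabggta encodes the alpha subunit of Rab geranylgeranyl transferase, the subunit mutated in the gunmetal mouse, which has a platelet defect. The gene lies at chr14:55715416-55722263 on the minus strand (GRCm38). It had 4.61, 5.41, 4.6 and 5.35 CPM in the 4 Mettl3 KD libraries, 8.42, 6.76, 7.84 and 8.54 CPM in Mettl14 KD and 8.75, 8.90 and 8.35 CPM in scramble. Every Mettl3 KD library lay below every other library, and the Mettl14 KD and scramble libraries overlapped. The log2 fold change was -0.79 ± 0.098 (SE) in Mettl3 KD, with an adjusted p of 3.49e-06 in edgeR, and -0.13 ± 0.092 in Mettl14 KD, with an adjusted p of 0.334. Of all genes tested, 2.63% were called lower by more than 1.5-fold in Mettl3 KD, and Rabggta was the only one of the 9 in that class. These values rest on means of 112, 172 and 186 counts a library in Mettl3 KD, Mettl14 KD and scramble. The Mettl3 KD call did not turn on scramble replicate 2, since the log2 fold change was -0.78 without it, and it ran from -0.84 to -0.76 over the 11 fits that left out 1 library each.

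Rabggtb encodes the catalytic beta subunit and moved the other way. It lies at chr3:153907287-153913009 on the minus strand (GRCm38). Mettl3 KD libraries had 99.6, 99.6, 105 and 101 CPM, Mettl14 KD libraries 102, 103, 99.7 and 106 CPM, and scramble libraries 95.3, 81.6 and 96.1 CPM. All 8 knockdown libraries were above the highest scramble library, and scramble replicate 2 was the lowest of the 11. The log2 fold change was 0.15 ± 0.046 in Mettl3 KD (adjusted p = 0.0161) and 0.18 ± 0.046 in Mettl14 KD (adjusted p = 0.00910) in the edgeR test. Without scramble replicate 2 these values were 0.08 (adjusted p = 0.0840) and 0.11 (adjusted p = 0.0300) by the same edgeR test, so that the Mettl3 KD call ended. It also ended without Mettl3 KD replicate 3, at 0.14 (edgeR adjusted p = 0.0515).

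Set per kilobase against Rabggtb, Rabggta was at 2.43 ± 0.247% in Mettl3 KD, 3.77 ± 0.375% in Mettl14 KD and 4.72 ± 0.575% in scramble by the longest transcripts (SD, n = 4, n = 4 and n = 3). The libraries ran from 2.16% to 2.67% in Mettl3 KD, from 3.22% to 4.05% in Mettl14 KD and from 4.27% to 5.37% in scramble, and the 3 ranges did not overlap. The highest was scramble replicate 2, in which Rabggtb was lowest. Scramble replicates 1 and 3 were at 4.52% and 4.27%, still above both knockdowns. With the shortest transcripts the means were 3.62%, 5.61% and 7.03% in the same order of groups. No test was made of this ratio, which combines values already tested.

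**Figure D3:**
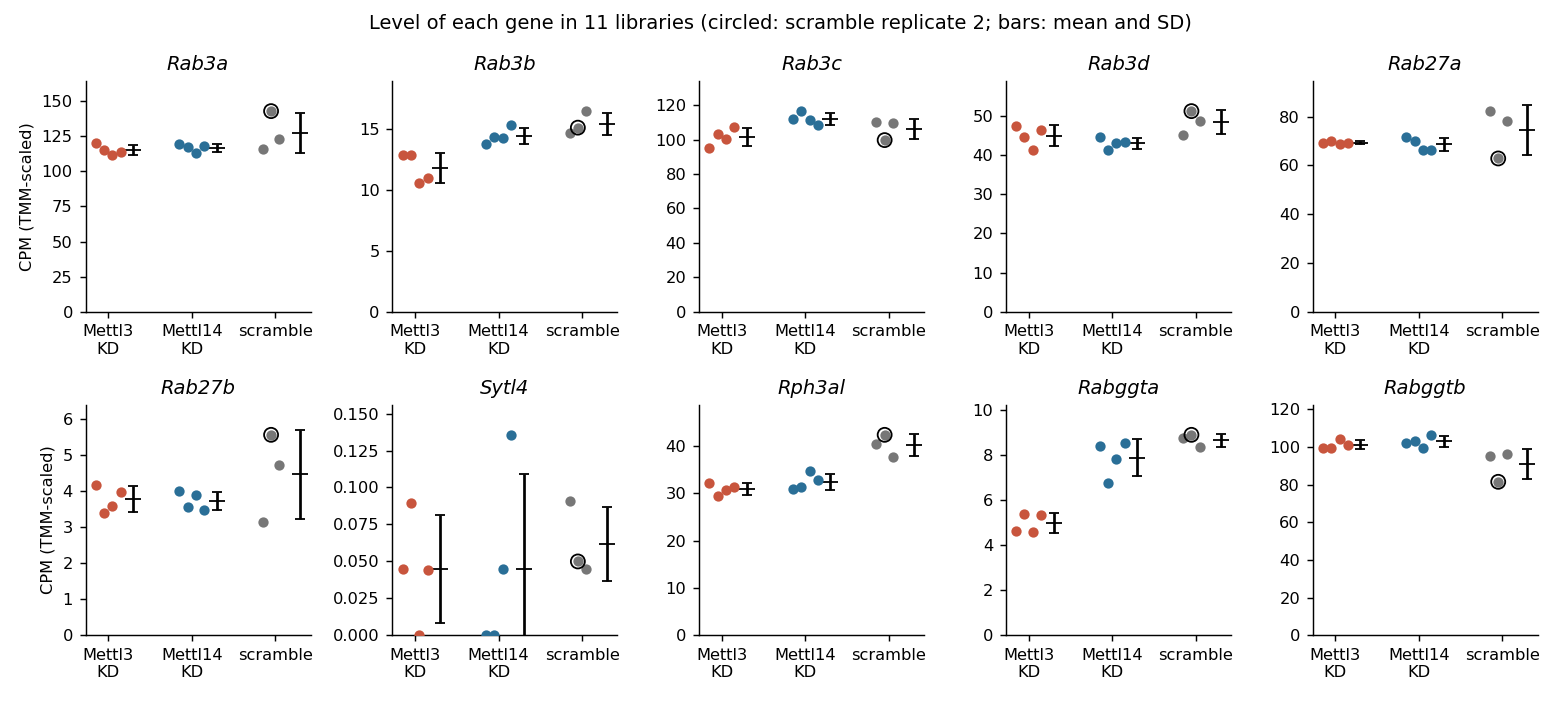
Level of each of the 10 genes in every library, as CPM after TMM scaling, with the mean and SD of each group; scramble replicate 2 is circled. The 4 Mettl3 KD libraries of Rabggta lie between 4.6 and 5.41 CPM, below all others, and the 8 knockdown libraries of Rph3al lie between 29.4 and 34.7 CPM, below all 3 scramble libraries.

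Among the effectors, Rph3al encodes Noc2, a granule protein that binds Rab3 and Rab27 and is needed for normal regulated secretion from mouse endocrine and exocrine cells. The gene lies at chr11:75830999-75938429 on the minus strand (GRCm38). It had 32.3, 29.4, 30.8 and 31.4 CPM in Mettl3 KD libraries, 30.9, 31.3, 34.7 and 33.0 CPM in Mettl14 KD and 40.5, 42.4 and 37.7 CPM in scramble. Every knockdown library of either kind lay below every scramble library, and the knockdowns overlapped with each other. The log2 fold change was -0.38 ± 0.052 in Mettl3 KD (adjusted p = 1.52e-05) and -0.31 ± 0.052 in Mettl14 KD (adjusted p = 0.000246) in the edgeR test. Without scramble replicate 2, in which Rph3al was highest, the values were -0.34 and -0.27, and both passed.

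Sytl4 encodes granuphilin, the Rab27 effector that docks insulin granules in mouse beta cells. It had 1, 2, 0 and 1 counts in Mettl3 KD, 0, 0, 1 and 3 counts in Mettl14 KD and 2, 1 and 1 counts in scramble, or 4 counts in each group and 12 in all. No library exceeded 3 counts, the limit that a count of 0 allows, which is 0.134 to 0.153 CPM here for counting error alone. The gene was not tested, and no difference was detectable at this depth.

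The Rab3 GTPases differed in size and call. Rab3b, a paralog found in pituitary and other secretory cells, lies at chr4:108879063-108943324 on the plus strand (GRCm38). It had 12.9, 12.9, 10.6 and 11 CPM in Mettl3 KD libraries, 13.8, 14.3, 14.3 and 15.4 CPM in Mettl14 KD and 14.7, 15.2 and 16.5 CPM in scramble. All Mettl3 KD libraries were below all others, while the Mettl14 KD and scramble libraries overlapped. Its log2 fold change was -0.38 ± 0.076 in Mettl3 KD (adjusted p = 0.000624) and -0.10 ± 0.074 in Mettl14 KD (adjusted p = 0.383) in the edgeR test. The Mettl3 KD call held without scramble replicate 2, at -0.40. Its exons share 317 bases, 9.0% of their length, with the antisense gene 8030443G20Rik, which had 0 counts in every library. The Rab3b share of the Rab3 sum was 3.52 ± 0.287% in Mettl3 KD, 4.19 ± 0.209% in Mettl14 KD and 4.19 ± 0.400% in scramble by the longest transcripts. Scramble replicate 2 was the lowest of its group, at 3.75%, and scramble replicates 1 and 3 were at 4.27% and 4.54%.

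Rab3a, the main Rab3 protein of brain synaptic vesicles, had 120.1, 115, 112 and 114 CPM in Mettl3 KD libraries, 119.5, 117, 113 and 118 CPM in Mettl14 KD and 116, 143 and 123 CPM in scramble. The groups overlapped, and scramble replicate 2 was the highest library. Neither knockdown passed edgeR's quasi-likelihood test, with log2 fold changes of -0.14 ± 0.054 (adjusted p = 0.0580) in Mettl3 KD and -0.12 ± 0.054 (adjusted p = 0.130) in Mettl14 KD. They were -0.05 and -0.03 without scramble replicate 2. Without scramble replicate 1 they were -0.21 (edgeR adjusted p = 0.00272) and -0.18 (edgeR adjusted p = 0.00965), and both passed.

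Rab3c, a paralog best known from neurons, had 95.3, 104, 100.4 and 107 CPM in Mettl3 KD libraries, 112, 117, 111 and 108 CPM in Mettl14 KD and 110.0, 99.7 and 109 CPM in scramble. Each knockdown overlapped with scramble. Its log2 fold change was -0.07 ± 0.042 in Mettl3 KD (adjusted p = 0.250) and 0.07 ± 0.042 in Mettl14 KD (adjusted p = 0.236) in the edgeR test. Scramble replicate 2 was the lowest scramble library, and without it the Mettl3 KD value was -0.11 and passed (edgeR adjusted p = 0.0251).

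Rab3d, known from the zymogen granules of exocrine cells, had 47.4, 44.7, 41.2 and 46.5 CPM in Mettl3 KD libraries, 44.6, 41.2, 43.0 and 43.3 CPM in Mettl14 KD and 45.1, 51.2 and 48.8 CPM in scramble. All Mettl14 KD libraries were below all scramble libraries, by a margin of less than 1 CPM at the nearest pair, and Mettl3 KD overlapped with scramble. In the edgeR test its log2 fold change was -0.17 ± 0.051 in Mettl14 KD (adjusted p = 0.0234) and -0.11 ± 0.051 in Mettl3 KD (adjusted p = 0.12). The Mettl14 KD call ended without scramble replicate 2 (-0.13, edgeR adjusted p = 0.0733), scramble replicate 3, Mettl14 KD replicate 2 or Mettl14 KD replicate 4, where the highest adjusted p was 0.0745. In Mettl3 KD the value passed without scramble replicate 1, at -0.15 (edgeR adjusted p = 0.0344).

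The Rab27 GTPases were not called in either knockdown. Rab27a, which tethers lytic granules, melanosomes and insulin granules and is lost in the ashen mouse, had 69.3, 70.2, 68.8 and 69.0 CPM in Mettl3 KD libraries, 71.8, 70.0, 66.4 and 66.2 CPM in Mettl14 KD and 82.3, 62.9 and 78.3 CPM in scramble. The scramble libraries lay on both sides of the knockdown libraries, with replicate 2 below all of them and replicates 1 and 3 above all of them. The log2 fold change was -0.11 ± 0.071 in Mettl3 KD (adjusted p = 0.289) and -0.12 ± 0.071 in Mettl14 KD (adjusted p = 0.258) in the edgeR test. Without scramble replicate 2 these became -0.21 (edgeR adjusted p = 5.17e-05) and -0.23 (edgeR adjusted p = 3.53e-05), and both passed. The level of Rab27a in scramble, and with it the call, thus rested on 1 library.

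Rab27b, the paralog prominent in platelets and exocrine cells, had 4.16, 3.40, 3.57 and 3.96 CPM in Mettl3 KD libraries, 3.98, 3.55, 3.87 and 3.48 CPM in Mettl14 KD and 3.13, 5.55 and 4.71 CPM in scramble. The groups overlapped, with scramble replicate 2 highest and scramble replicate 1 lowest of the 11 libraries. The log2 fold change was -0.24 ± 0.149 in Mettl3 KD (adjusted p = 0.248) and -0.25 ± 0.150 in Mettl14 KD (adjusted p = 0.245) in the edgeR test. They were -0.06 and -0.07 without scramble replicate 2. Without scramble replicate 1 they were -0.44 (edgeR adjusted p = 0.0150) and -0.46 (edgeR adjusted p = 0.0164), and both passed. The platelet, endothelial and mesenchymal markers, 9 in number, summed to 30.6 CPM in scramble replicate 2, with 2 at 0. In the other libraries they summed to 9.41 to 15.3 CPM. Of the platelet markers, Pf4 and Gp9 were at 0 in all scramble libraries. Ppbp had 2 counts over all libraries, and these were in scramble replicate 2, where Rab27b was highest. Itga2b ran from 3.40 to 3.77 CPM in scramble. The endothelial and mesenchymal markers spread more widely there, such as Pecam1 from 0.359 to 3.2 CPM and Col3a1 from 0.269 to 7.75 CPM. The part of any of these markers in the Rab27b level was not tested.

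**Figure D4:**
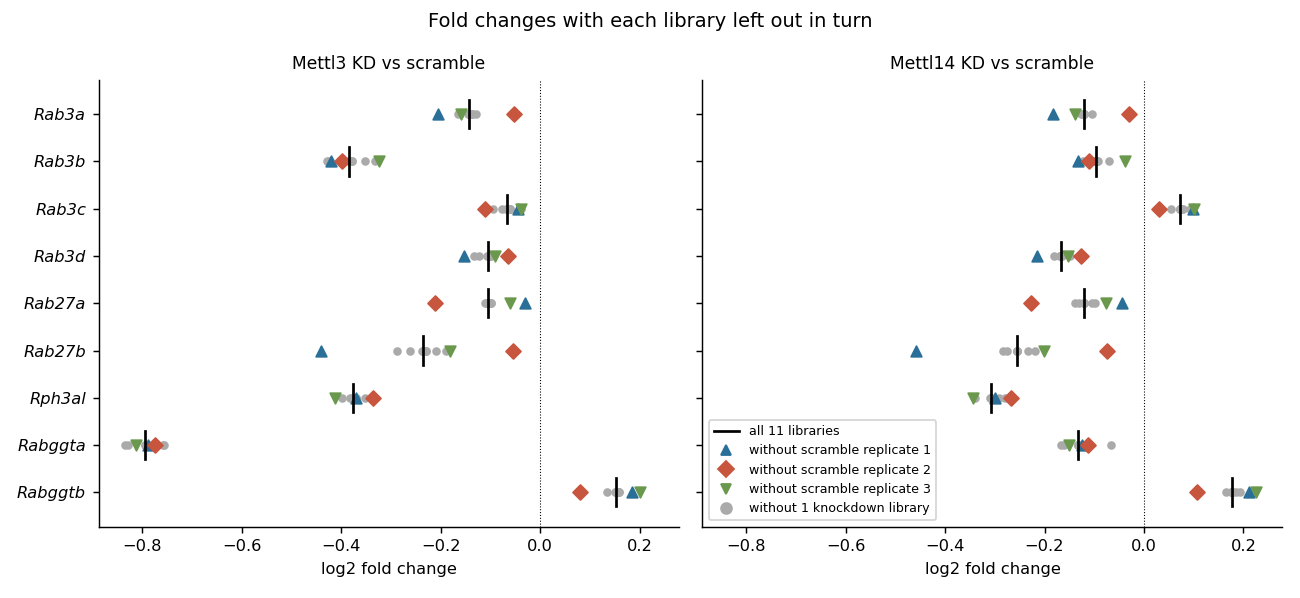
Log2 fold change of the 9 tested genes in Mettl3 KD and Mettl14 KD against scramble with all 11 libraries (black bar) and with each library left out in turn. Rab27a in Mettl3 KD moves to -0.21 without scramble replicate 2 (diamond) and Rab27b to -0.44 without scramble replicate 1 (upward triangle), while Rabggta in Mettl3 KD stays between -0.84 and -0.76.

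The knockdowns were also set against each other, which tests whether the genes differ between them without the scramble levels. The spread was still estimated over all 11 libraries, so the scramble libraries entered the p-values. With only the 2 groups compared, 2187 of all genes were called in place of 1145, and Rabggta, Rab3b and Rab3c were called either way. The knockdowns were unequal in depth: Mettl3 was at 35.8% of scramble in Mettl3 KD and Mettl14 at 58.1% in Mettl14 KD. Mettl14 was also called higher in Mettl3 KD, at 116% of scramble (edgeR adjusted p = 0.00494). The part of these inequalities in the calls was not tested. Rabggta, Rab3b and Rab3c were lower in Mettl3 KD than in Mettl14 KD and none was higher, so 3 of 9 tested genes were called, against 8.1% of all genes tested. All genes gave 4.44% lower and 3.66% higher calls, and libraries of the knockdowns were fully apart for 3 of 9 genes, against 17.6% of all. The median log2 fold change was -0.03 over the 9 genes and 0.00 over all genes. Rabggta averaged 4.99 ± 0.447 CPM with Mettl3 and 7.89 ± 0.812 CPM with Mettl14 knocked down (SD, n = 4 each), a log2 fold change of -0.66 ± 0.092 (edgeR adjusted p = 0.000104) with no overlap. It was 1 of 28 genes, 0.198% of those tested, called lower by more than 1.5-fold in this comparison. Rab3b averaged 11.9 ± 1.22 CPM with Mettl3 and 14.5 ± 0.654 CPM with Mettl14 knocked down, a log2 fold change of -0.29 ± 0.071 (edgeR adjusted p = 0.0157). Rab3c averaged 102 ± 5.04 CPM with Mettl3 and 112 ± 3.37 CPM with Mettl14 knocked down, a log2 fold change of -0.14 ± 0.039 (edgeR adjusted p = 0.0303). The libraries of each of these genes did not overlap. The 12 alpha cell markers summed to 42973 to 44812 CPM in Mettl3 KD libraries and to 47976 to 50292 CPM with Mettl14 knocked down, and the part of this difference in the calls was not tested. Rph3al and Rabggtb, called in both knockdowns against scramble, did not pass here, at -0.07 ± 0.050 (edgeR adjusted p = 0.472) and -0.03 ± 0.042 (edgeR adjusted p = 0.792). Only the Rabggta call held with each library left out in turn. The Rab3b call ended without Mettl3 KD replicate 3, Mettl3 KD replicate 4 or Mettl14 KD replicate 4 (highest adjusted p = 0.0653 by edgeR), and the Rab3c call ended without replicate 1, 2 or 3 of either knockdown (highest adjusted p = 0.116 by edgeR).

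Genes that act around these GTPases were counted from lists of other effectors, regulators, escort and lipid-supply genes and other Rab proteins. Of 14 other Rab3 and Rab27 effectors, 9 were expressed highly enough to test, with a median log2 fold change of -0.02 in Mettl3 KD and 0.03 in Mettl14 KD. The well-expressed ones were not called in either knockdown. Sytl2, a Rab27 effector related to granuphilin and reported on glucagon granules of mouse alpha cells, averaged 186 ± 4.02 CPM in Mettl3 KD libraries, 183 ± 1.56 CPM in Mettl14 KD and 181 ± 2.10 CPM in scramble. Rims2, which links Rab3 to the release machinery, averaged 62.4 ± 0.512, 65.5 ± 1.62 and 63.5 ± 0.893 CPM in the same groups. In Mettl3 KD 2 of 9, both under 1 CPM, fell and none rose, against 15.8% of all genes tested that fell and 15.5% that rose. In Mettl14 KD 0 of 9 passed in edgeR, against 20.9% of all genes. Before adjustment 1 of the 9 had p under 0.05, and the count of calls was also 0 by limma-voom and by DESeq2. Rph3a, encoding rabphilin, averaged 0.436 ± 0.0570 CPM in Mettl3 KD and 0.830 ± 0.188 CPM in scramble (log2 fold change -0.91 ± 0.28, edgeR adjusted p = 0.0162). Unc13d, the priming factor Munc13-4, averaged 0.413 ± 0.105 CPM in Mettl3 KD and 0.820 ± 0.374 CPM in scramble, with overlap (-0.97 ± 0.36, edgeR adjusted p = 0.0442). Neither call held without scramble replicate 2, where the values were -0.77 and -0.60. The Rph3a call also ended without scramble replicate 1, and the Unc13d call without scramble replicate 3, replicate 2 or 3 of Mettl14 KD, or any Mettl3 KD library.

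The list of exchange factors and GTPase activators related to Rab3 and Rab27 held 9 genes, not a complete set, and all were tested. Their medians were 0.03 in Mettl3 KD and 0.04 in Mettl14 KD on the log2 scale. In Mettl3 KD 2 of 9 rose and none fell, so 22.2% were called, against 31.3% of all genes tested. Rabif, an exchange factor and chaperone of exocytic Rab proteins, averaged 63.9 ± 1.34 CPM in Mettl3 KD and 55.6 ± 0.813 CPM in scramble (log2 fold change 0.20 ± 0.036, edgeR adjusted p = 0.000245). Rab3gap1, the catalytic subunit of the Rab3 GTPase activator, averaged 75.6 ± 1.80 CPM in Mettl3 KD and 69.4 ± 0.594 CPM in scramble (0.12 ± 0.035, edgeR adjusted p = 0.0101). Both calls held with each library left out in turn. In Mettl14 KD 2 rose and 1 fell, or 3 of 9 called, against 20.9% of all genes. Madd, the Rab3 and Rab27 exchange factor, averaged 196 ± 1.65 CPM in Mettl14 KD and 178 ± 9.78 CPM in scramble (0.13 ± 0.035, edgeR adjusted p = 0.00957). Rabif rose by a smaller amount (0.12 ± 0.036, edgeR adjusted p = 0.0243), a call that ended without scramble replicate 1, Mettl14 KD replicate 1 or Mettl14 KD replicate 2. Tbc1d10b, a GTPase activator that acts on Rab27a, fell (-0.10 ± 0.034, edgeR adjusted p = 0.0356), and that call ended when scramble replicate 1 or 3 or Mettl14 KD replicate 1, 3 or 4 was left out.

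Of the escort, recycling and prenyl-supply genes, all 9 were tested, with medians of -0.07 in Mettl3 KD and -0.05 in Mettl14 KD on the log2 scale. The called genes were 2 of 9 in Mettl3 KD, against 31.3% of all genes tested, and 3 of 9 in Mettl14 KD, against 20.9%. Rabac1, the prenylated Rab acceptor, averaged 67.5 ± 2.21 CPM in Mettl3 KD libraries, 71.2 ± 3.91 CPM in Mettl14 KD and 78.0 ± 1.2 CPM in scramble. It fell in both, with log2 fold changes of -0.21 ± 0.042 (edgeR adjusted p = 0.000708) in Mettl3 KD and -0.13 ± 0.042 (edgeR adjusted p = 0.0304) in Mettl14 KD, where the call ended without scramble replicate 3 or Mettl14 KD replicate 2, 3 or 4. Pggt1b, the beta subunit of the related geranylgeranyl transferase that modifies other small GTPases, rose in both, at 0.15 ± 0.051 (edgeR adjusted p = 0.0295) and 0.17 ± 0.051 (edgeR adjusted p = 0.0225). Its Mettl3 KD call ended without replicate 1 or 3 of scramble or replicate 2 or 3 of Mettl3 KD, and its Mettl14 KD call without replicate 1 of scramble or of Mettl14 KD. Fnta, the alpha subunit that Pggt1b shares with farnesyl transferase, rose in Mettl14 KD to 55.9 ± 2.33 CPM, against 50.2 ± 0.801 CPM in scramble (0.16 ± 0.041, edgeR adjusted p = 0.00981). The escort proteins Chm and Chml, which present Rab proteins to the transferase, were not called in either knockdown with all libraries. Without scramble replicate 1 Chm was called lower in Mettl14 KD, at -0.19.

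Among 51 other Rab GTPases 40 were tested. In Mettl3 KD 2 rose and 7 fell, with a median log2 fold change of -0.02, and in Mettl14 KD 1 rose and 4 fell, with a median of -0.03. The share called was 22.5% in Mettl3 KD, against 31.3% of all genes tested, and 12.5% in Mettl14 KD, against 20.9%. Rab37, a Rab of secretory granules, had the smallest adjusted p in Mettl3 KD: it averaged 31.5 ± 1.92 CPM in Mettl3 KD libraries, 36.6 ± 1.72 CPM in Mettl14 KD and 44.1 ± 2.0 CPM in scramble. Its log2 fold changes were -0.48 ± 0.052 (edgeR adjusted p = 6.64e-07) in Mettl3 KD and -0.27 ± 0.052 (edgeR adjusted p = 0.000821) in Mettl14 KD, with no overlap with scramble in either. Rab30, a Rab of the Golgi, rose in both, averaging 16.7 ± 0.452 CPM in Mettl3 KD libraries, 18.5 ± 0.994 CPM in Mettl14 KD and 13.1 ± 1.19 CPM in scramble (0.35 ± 0.068, edgeR adjusted p = 0.000576, and 0.49 ± 0.068, edgeR adjusted p = 2.17e-05). Rab1a, which acts between the endoplasmic reticulum and the Golgi, fell in Mettl3 KD (-0.16 ± 0.036, edgeR adjusted p = 0.00188), as did Rab10 of exocytic traffic (-0.15 ± 0.035, edgeR adjusted p = 0.00301). In Mettl14 KD, Rab11b of recycling endosomes and Rab5b of early endosomes fell by 0.11 and 0.10 on the log2 scale, and both calls ended without scramble replicate 3 or Mettl14 KD replicate 1 or 3, and that of Rab5b also without Mettl14 KD replicate 2 or 4. Of the other Rab genes, 5 fell in Mettl3 KD without scramble replicate 2. Only 3 or 4 did without scramble replicate 3, replicate 2 or 4 of Mettl3 KD, or replicate 1 or 4 of Mettl14 KD. In Mettl14 KD 1 or 2 fell without scramble replicate 3 or any 1 of the Mettl14 KD libraries. The count that rose was 1 in Mettl3 KD without replicate 1 or 4 of that knockdown, and 2 in Mettl14 KD without scramble replicate 1.

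**Figure D5:**
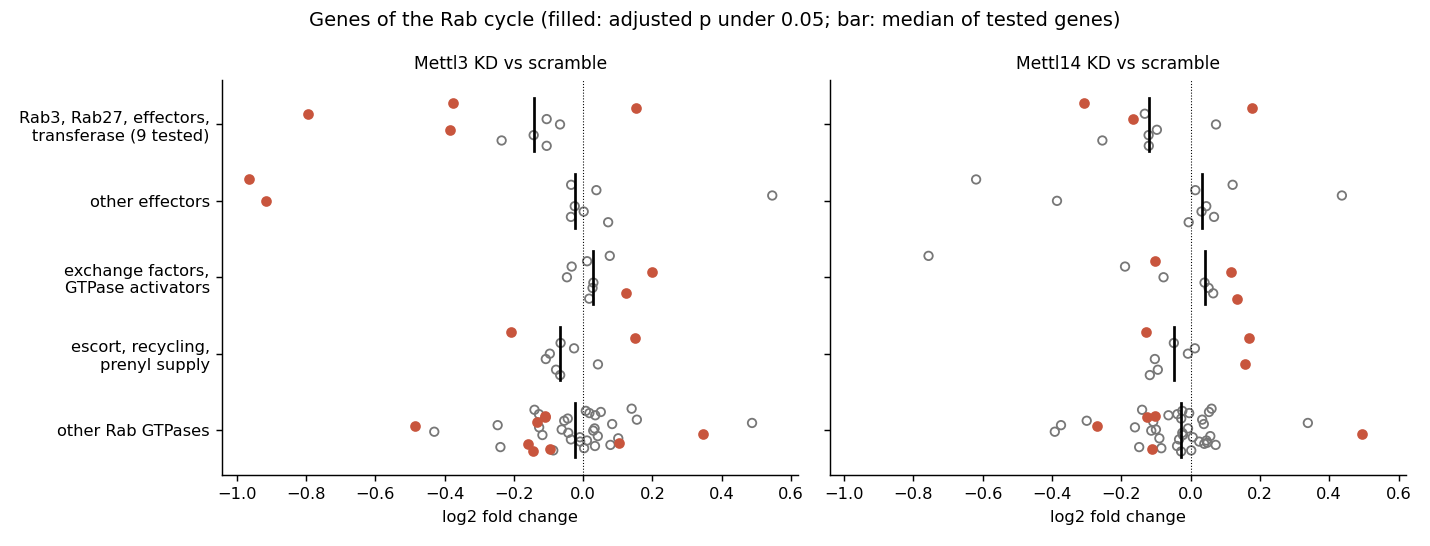
Log2 fold change of the tested genes of each list in Mettl3 KD and Mettl14 KD against scramble; filled points have an adjusted p under 0.05 in edgeR's quasi-likelihood test and the bar is the list's median. The medians lie between -0.14 and 0.04, and the lowest point among the 9 tested genes of the top line is Rabggta in Mettl3 KD at -0.79.

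Rabggta had the largest fold change of the 9 tested genes, so the genes with the most similar pattern over the 11 libraries were looked up among 11396 genes with a mean of at least 50 counts. The measure was the root mean square difference in log2 CPM after centring each gene on its own mean, with a median of 0.375 over all genes compared. The nearest were Pip4k2b, a phosphoinositide kinase, at 0.119, Nptx1, a neuronal pentraxin, at 0.127, and Dnajb1, a heat shock cochaperone, at 0.138. Pip4k2b averaged 52.4 CPM in Mettl3 KD libraries, 81.8 CPM in Mettl14 KD and 84.5 CPM in scramble. Dnajb1 averaged 54.2, 77.8 and 82.8 CPM, and Nptx1 14.4, 19.6 and 24.5 CPM, in the same groups. All 3 were chosen for their likeness, so these values describe the pattern and test nothing.

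The knockdowns target an m6A writer, whose best-known consensus core is GGACU in RNA, written GGACT in the transcript sequence. The 5 letters were searched on the transcript strand of 1 coding transcript per gene in GENCODE M21 (GRCm38); the motif cannot overlap itself, and m6A was not measured here. Rabggta held 4 matches in 2882 bases, 2 in the coding sequence and 2 in the 3' untranslated region. They are shown with 8 bases on either side and the motif in capitals, because Rabggta had the largest fold change of the 9 tested genes; they lie on the minus strand at chr14:55720485-55720505, chr14:55719455-55719475, chr14:55716342-55716362 and chr14:55716064-55716084, in this order.
Rabggta coding, upstream: cattgctgGGACTatcggcga
Rabggta coding, downstream: ggaatggaGGACTccagatgg
Rabggta untranslated, near the stop: acttattgGGACTgaataaag
Rabggta untranslated, far from the stop: tgtggtttGGACTgctcatca
The untranslated matches lie 38 and 316 bases after the stop codon. Such matches are common: 92.0% of 12190 tested genes held at least 1, and of 1573 genes whose transcript was within 10% of that of Rabggta in length, 95.1% held at least 1 and 40.3% at least 4. Rabggta had 1.39 matches per kilobase, against a median of 1.04 and quartiles of 0.635 and 1.51 over all genes. Rab3b had 1.80, Rab3d 1.54, Rph3al 0.910, Rab3c 0.83, Rabggtb 0.724, Rab3a 0.643, Rab27b 0.581 and Rab27a 0.316 matches per kilobase. A match is a description of the sequence and not a methylated site.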

How the data were processed

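For 11 stranded mRNA libraries the authors deposited a single table of estimated counts by gene. Per the submitters' processing notes the tool was kallisto, without a version; build, annotation and the summing of transcripts to genes are not stated in the sources used here. In the deposited estimated counts 11.6% of values were not whole, and all were rounded. Groups came from sample titles. Symbols, lengths and sequences came from GENCODE M21 (GRCm38). edgeR 4.0.16 in R 4.3.3 (trimmed mean of M-values, filterByExpr with a minimum count of 10, robust quasi-likelihood F-test, a mean per group over all 11 libraries, 8 residual degrees of freedom, Benjamini-Hochberg threshold 0.05) tested 14133 genes; the common coefficient of variation was 4.38%. Each SE is the absolute log2 fold change over the square root of F. Floors cover counting error only. Alternatives used DESeq2 1.42.0, limma 3.58.1, other scalings and filters, a replicate block and leaving out each library. The fit was tested on simulated data with the same spread for every gene and library, so that test does not cover a library like scramble replicate 2. No replicate pair agreed within sampling noise, with chi-square per degree of freedom of at least 2.11. Scramble replicate 2 gave 15.3 with scramble replicate 1 and 13.8 with scramble replicate 3.

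All 10 members were named. From each list of related genes, up to 3 called genes with the smallest adjusted p in each knockdown were named, and up to 4 from the other Rab genes; Sytl2, Rims2, Chm and Chml were named after their values were seen, some list genes are not reported here by name, and markers of cell types are given mainly as sums. Members and lists were chosen with earlier results of these data known. Kallisto shares out reads between transcripts with common sequence: the share of 31-base words that also occur in another gene was 8.33% for Rab3b, 5.06% for Rab27a, 3.82% for Rabggta, 3.51% for Rabggtb and 0 for Rab3a and Rph3al.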

Additional observations from a re-analysis of the deposited data

Results flagged for a closer look

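For 3 genes the effect of the knockdowns differed by a direct test of one against the other, the quasi-likelihood F-test of edgeR, adjusted by Benjamini-Hochberg over all genes. The log2 fold change of Mettl3 KD over Mettl14 KD was -0.66 for Rabggta (adjusted p = 0.000104), -0.29 for Rab3b (adjusted p = 0.0157) and -0.14 for Rab3c (adjusted p = 0.0303), and for each gene all 4 Mettl3 KD libraries lay below all 4 Mettl14 KD libraries. No library of the 10 genes was far enough from the others of its group to be singled out, in 20 groups of 4 examined by Dixon's criterion; chance alone gives about 1 in 20. Groups of 3 were not examined, so the scramble libraries were not.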

How the results depend on the processing

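Over 27 member results and 22 alternative settings there were 594 values, of which 560 kept their side of the threshold, 20 lost the call and 14 gained one; no called value changed sign, and Rab27a and Rab27b between the knockdowns, never called, did so with some libraries left out. Leaving out 1 library in turn gave 3 to 7 members called in Mettl3 KD (4 with all libraries), 2 to 5 in Mettl14 KD (3) and 1 to 3 between the knockdowns (3), with 7 and 5 without scramble replicate 1 and 1 without Mettl3 KD replicate 3. Against scramble, the calls of Rabggta and Rab3b in Mettl3 KD, of Rabggtb in Mettl14 KD and of Rph3al in both held under all 22. By method, Rab3a in Mettl3 KD passed with DESeq2 (adjusted p = 0.0466) and without a filter on low counts (edgeR adjusted p = 0.00369) or with one at 1 CPM (edgeR adjusted p = 0.0499), as it did in Mettl14 KD without the filter (edgeR adjusted p = 0.0274). The Rab3c call between the knockdowns ended with limma-voom (adjusted p = 0.0505) and without robust estimation (edgeR adjusted p = 0.0506), and sample quality weights in limma called Rab27a lower (-0.18 and -0.20) and ended the Rabggtb call in Mettl3 KD and the Rab3d call in Mettl14 KD. The number of genes called between the knockdowns, 1145, became 1868 with quality weights and 2187 with only the compared groups, and 713 to 2125 with a library left out, 2125 without scramble replicate 2 and at most 762 without replicate 1 or 4 of Mettl3 KD or replicate 1, 3 or 4 of Mettl14 KD. The cause was not tested. With the shortest transcripts, a choice added after seeing the data, the shares were 32.4% for Rab3a, 38.3% for Rab3c and 93.6% for Rab27a, by construction of the length.

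Replicate numbers did not pair the libraries: same-numbered libraries correlated at -0.118 to 0.0674 over 10 pairs, and 2 of 11 correlated best with their own number. With the number as a replicate block, 3784, 2335 and 839 genes were called in Mettl3 KD, in Mettl14 KD and between them, and of the member calls only that of Rab3c between the knockdowns ended (edgeR adjusted p = 0.0752). Depth limits Sytl4, at 12 counts in all, and the effectors under 1 CPM.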
